A study of Oryza sativa with 15 samples.

Results

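The 68 loci described here are rice genes annotated as MYB proteins, out of 12557 loci with enough allele-specific reads in endosperm. A locus was taken when the function text of the deposited tables held MYB as a word or word start and named no transposon. It also needed at least 30 reads in each of the crosses LR and RL, or at least 20 reads in each of the crosses YW and WY. LOC_Os02g17190, also annotated as MYB, was left out by the same rule. Of the 68 loci, 58 could be tested in LR-RL, 63 in YW-WY and 53 in both, and 6 further MYB loci were listed only below the minimum. Just inside the minimum in LR-RL were LOC_Os02g46940 and LOC_Os02g46030, with 32 reads each in the cross with fewer reads. Just outside were LOC_Os01g41900 with 27 and LOC_Os06g49040 with 26. In YW-WY, LOC_Os01g64360 and LOC_Os06g51260 were inside with 24 reads, and LOC_Os01g50110 was outside with 13. The members lay on 12 chromosomes, with 16 of them on chromosome 1. The function text called 48 of them a MYB family transcription factor, 9 a myb-like DNA-binding domain protein, 3 a myb/SANT domain protein and 3 a single myb histone, and 5 had other wordings.

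MYB proteins bind DNA through repeats of a short helical domain with conserved tryptophans. In plants they form one of the largest transcription factor families, with members that act in secondary metabolism, cell fate, hormone and stress responses and the circadian clock. Single myb histones, known from maize, join a MYB domain to a domain like that of a linker histone and bind telomere repeats. Imprinted genes, whose expression depends on the parent that gave the allele, occur in plants mainly in the endosperm, the nutritive tissue of the seed.

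RNA of hybrid endosperm was sequenced 5 days after fertilization, with 20 to 30 endosperms in each replicate. LR had the japonica line Liuqianxin-A as mother and the indica line Rongfeng-B as father, and RL had Rongfeng-A as mother and Liuqianxin-B as father. YW had the japonica line Yu6-A as mother and the indica line Wufeng-B as father, and WY had Wufeng-A as mother and Yu6-B as father. Every mother was a cytoplasmic male sterile line (A) and every father a fertile maintainer line (B), which has the nuclear genome of its A partner, so all hybrids carried the cytoplasm of a sterile line. The tables pool the libraries of a cross (3 of LR, 3 of RL, 2 of YW and 2 of WY), and the 5 libraries of inbred Liuqianxin and Rongfeng endosperm were not analysed here. Values below therefore carry counting error without a spread between replicates, and the 2 cross sets are the only repeats of each other.

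Allele reads of all loci came to 29714227 in LR and 34433249 in RL, and 29149713 in YW and 29302004 in WY. The median MYB locus had 355.5 reads in LR and 351.5 in RL, and 348 in YW and 183 in WY. As a check of the tissue, endosperm marker genes were looked up, and 6 of 6 were listed in LR-RL and 4 of 6 in YW-WY. Their summed level, in CPM (reads of a locus scaled to equal library totals), was 17865 in LR and 23312 in RL, and 4624 in YW and 7732 in WY. Of these markers, LOC_Os08g42350 was read almost only from the mother. It had 267 maternal and 0 paternal reads in LR and 129 and 0 in RL. In YW it had 695 and 1, and in WY 324 and 3. Its level was 8.99 CPM in LR and 3.75 in RL, and 23.9 in YW and 11.2 in WY. LOC_Os02g49410 was likewise higher with the japonica mother in both sets, and LOC_Os02g15350 was lower. The other listed markers had reads of both alleles in each cross. What gave this maternal share was not tested. The single marker looked up for nucellus and seed coat and the single one for embryo were not listed in either table. Green-tissue genes (chlorophyll-binding proteins and Rubisco small subunits) came to 108 CPM in LR and 42.8 in RL from 2 of 4 loci. They came to 181 in YW and 80.1 in WY from 4 of 4 loci. The maternal share of their reads was 47.5% in LR and 76.4% in RL, and 54.5% in YW and 71.4% in WY.

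The first question of the design is whether a MYB allele was read more often when it came from the mother or from the father. Endosperm holds 2 maternal genomes and 1 paternal genome, so a share of 66.7% maternal reads was the null value. The quartiles of the members were 60.35% and 72.03% in LR and 59.01% and 70.28% in RL, and 71.59% and 80.63% in YW and 53.68% and 70.28% in WY. The maternal share of the members ran from 4.93% to 100% in LR with a median of 64.8%, and from 0% to 93.7% in RL with a median of 64.5%. It ran from 22.3% to 99.3% in YW with a median of 75.5%, and from 1.16% to 96.4% in WY with a median of 65.3%. Over all tested loci the medians were 67.1% in LR and 63.75% in RL, and 75.05% in YW and 62.9% in WY. YW thus stood above the other crosses both among the MYB loci and among all loci. There 54 of 63 members lay above 2:1, against 9202 of 11443 among all tested loci.

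**Figure D1:**
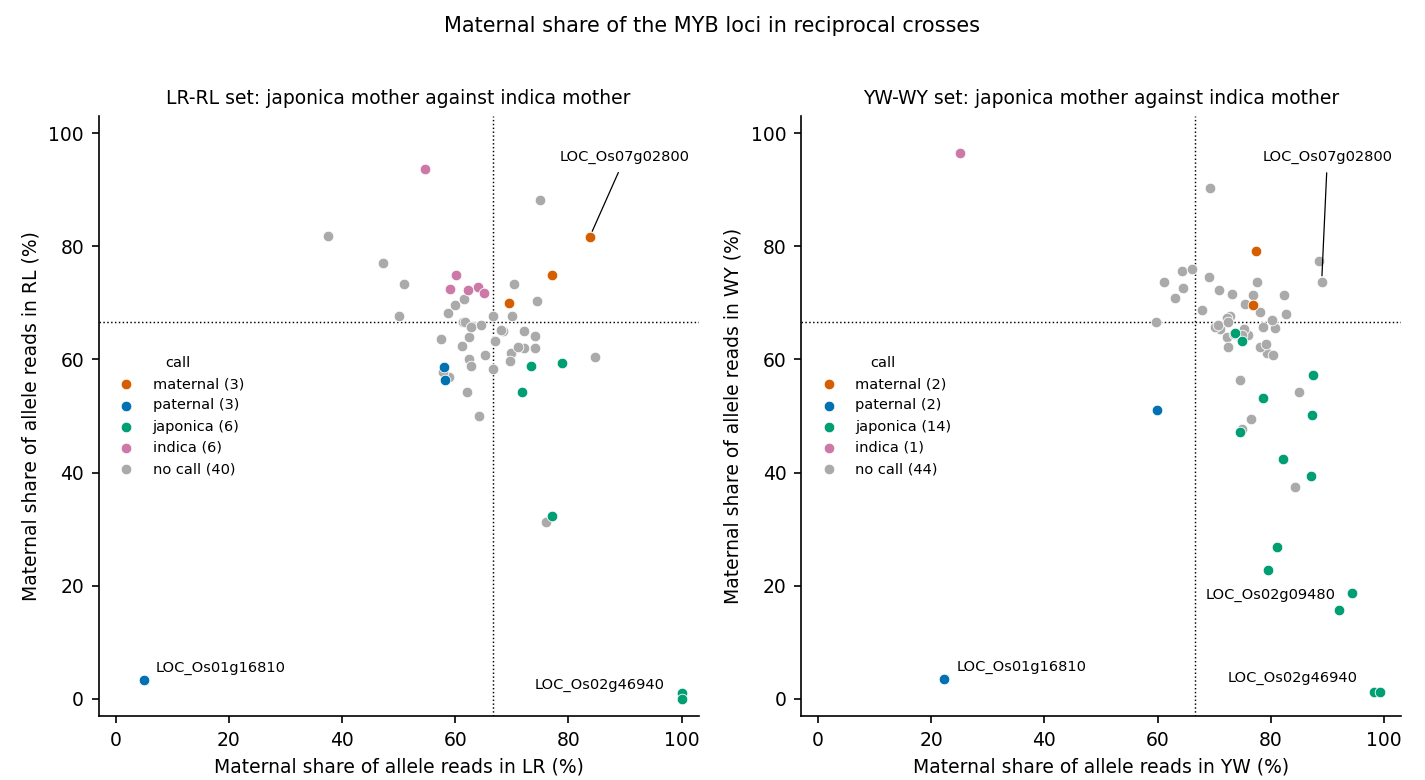
Maternal share of allele reads (%) of each MYB locus in the cross with the japonica mother (x axis) and the cross with the indica mother (y axis), for LR-RL (left, 58 loci) and YW-WY (right, 63 loci). Dotted lines mark 66.7%, colours mark the calls with their number, and LOC_Os01g16810 sits near the lower left corner of both panels, at 4.93% and 3.39% in LR-RL and at 22.3% and 3.53% in YW-WY.

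A locus was called maternal or paternal when its share was above or below 66.7% in both crosses of a set, with an adjusted p under 0.05 in an exact binomial test. In LR-RL, 3 of 58 MYB loci were called maternal and 3 paternal, where the background over all tested loci was 2.02% maternal and 6.75% paternal. In YW-WY, 2 of 63 were called maternal and 2 paternal, against backgrounds of 5.94% and 3.64%. A strong call, at least 5 times from 2:1 in both crosses, was made for 1 MYB locus in each set, toward the father in both, where strong paternal calls made up 1.63% of tested loci in LR-RL and 0.612% in YW-WY. Strong maternal calls numbered 0 among the members, against 0.847% and 0.970% of all loci. When the cross medians replaced 2:1, LR-RL gave 4 maternal and 2 paternal calls, where all loci gave 2.99% and 5.60%. YW-WY then gave 3 and 2, where all loci gave 3.37% and 5.47%. Any call, strain calls included, was made for 18 members in LR-RL and 19 in YW-WY, against 39.9% and 46.9% of all loci. Among the 53 loci tested in both sets, 0 were called maternal in both and 2 paternal in both, where 1.48% and 3.49% of all loci were.

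LOC_Os01g16810, a MYB family transcription factor on chromosome 1 with SNPs between positions 9568107 and 9569064, was read mainly from the father. The maternal allele had 11 of 223 reads in LR (4.93%, 95% Wilson interval 2.78 to 8.62) and 10 of 295 in RL (3.39%, 1.85 to 6.13), and 96 of 430 in YW (22.3%, 18.6 to 26.5) and 12 of 340 in WY (3.53%, 2.03 to 6.07). The share was far below 66.7% in 4 of 4 crosses, and that of YW was above the other 3, whose intervals overlapped. The exact binomial test gave adjusted p = 4.24e-84 for LR-RL and 1.43e-77 for YW-WY. In a joint edgeR fit of the 4 crosses, with the cross sets as repeats, its parental effect was -4.84 on the log2 scale (SE 0.29, adjusted p = 2.65e-58). It was the only paternal call of that fit among 53 members, against 6.71% of all loci. The p of that fit rests on a dispersion common to all loci. It does not measure how closely the 2 sets repeat each other at this locus. In edgeR the adjusted p was 0.00039 with the median ratio of each cross as offset. With a single strain effect for both sets it was 0.00315.

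The bias ran along the whole measured transcript. The 3 SNPs common to both tables were T9568107G, A9568767G and G9569064C, named by the reference base, the chromosome position and the alternative base. At transcript position 416 (A9568767G), the site with most reads, the maternal allele had 4 of 122 reads in LR and 7 of 132 in RL, and 55 of 258 in YW and 8 of 161 in WY. At position 1076 (T9568107G) it had 2 of 31 in LR and 0 of 30 in RL, and 7 of 32 in YW and 0 of 21 in WY. The lowest and highest share of any SNP were 3.28% and 10.3% in LR, 0% and 5.30% in RL, 21.3% and 24.3% in YW, and 0% and 4.97% in WY, so the higher share of YW was seen at each of its 3 SNPs. In the authors' deposited table, 4 of 4 SNPs in LR-RL and 3 of 3 in YW-WY were paternal with a false discovery rate under 0.05 in both crosses. The joint japonica-against-indica effect of this locus was 0.95 on the log2 scale (SE 0.29) and passed the threshold (edgeR, adjusted p = 0.00465). It missed the threshold in DESeq2 (0.92, adjusted p = 0.109). In edgeR it also missed with the median offset (0.71, adjusted p = 0.113) and with the SNP with most reads (0.57, 0.195). The difference between the sets in the japonica-against-indica effect of this locus was 1.36 (SE 0.58) and missed the threshold (edgeR, adjusted p = 0.233). Its total level was 7.33 TMM-scaled CPM in LR and 9.86 in RL, and 13.4 in YW and 13.8 in WY. The difference between mothers was -0.23 on the log2 scale (SE 0.36) and missed the threshold (edgeR, adjusted p = 0.772).

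LOC_Os01g63680, another MYB family transcription factor of chromosome 1 (SNPs from 36937255 to 36939134), was paternal in both sets to a small extent. Its maternal allele had 550 of 945 reads in LR (58.2%) and 302 of 535 in RL (56.4%), and 505 of 843 in YW (59.9%) and 356 of 696 in WY (51.1%). All 4 shares lay below 66.7%, and so did those of its 5 SNPs in each cross. The adjusted p of the exact binomial test reached 4.86e-06 for LR-RL and 0.00015 for YW-WY. The joint edgeR effect of -0.63 (SE 0.22) missed the threshold at an adjusted p of 0.0541, and likewise in DESeq2 (-0.63, adjusted p = 0.167). It passed with the median offset (-0.67, adjusted p = 0.0446) and with the SNP with most reads (-0.93, 0.003). It missed with a single strain effect (0.167) and in each fit that also left out 1 cross (0.188 to 1). LOC_Os04g49450 was called paternal in LR-RL, with 58.0% in LR and 58.7% in RL. In YW-WY it had 79.3% in YW and 61.2% in WY and no call.

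LOC_Os07g02800, a MYB family transcription factor on chromosome 7 (SNPs from 1046142 to 1046912), was the only member called maternal in the joint fit. Its maternal allele had 825 of 985 reads in LR (83.8%, 95% Wilson interval 81.3 to 85.9) and 231 of 283 in RL (81.6%, 76.7 to 85.7), and 582 of 654 in YW (89.0%, 86.4 to 91.2) and 112 of 152 in WY (73.7%, 66.2 to 80.0). All 4 shares were above 66.7%, and the interval of WY reached below it. The call was maternal in LR-RL (adjusted p = 1.47e-07, exact binomial test) and missing in YW-WY (0.142). The joint edgeR effect was 1.25 (SE 0.25, adjusted p = 6.51e-06), which made 1 of 53 members maternal, against 2.55% of all loci. LOC_Os01g03660 had a higher estimate with a wide error, 1.29 (SE 0.54), above 2:1 in 4 of 4 crosses, and missed the threshold (edgeR, adjusted p = 0.156). With 1 cross left out and a single strain effect for both sets, the edgeR call was lost without LR (1.42, adjusted p = 0.116), without RL (1.08, 0.131) and without YW (1.10, 0.165). It passed without WY (1.42, 0.0157). At transcript position 651 (G1046848T), WY had 20 maternal of 37 reads, while the other 3 crosses had at least 82.5% maternal reads there.

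**Figure D2:**
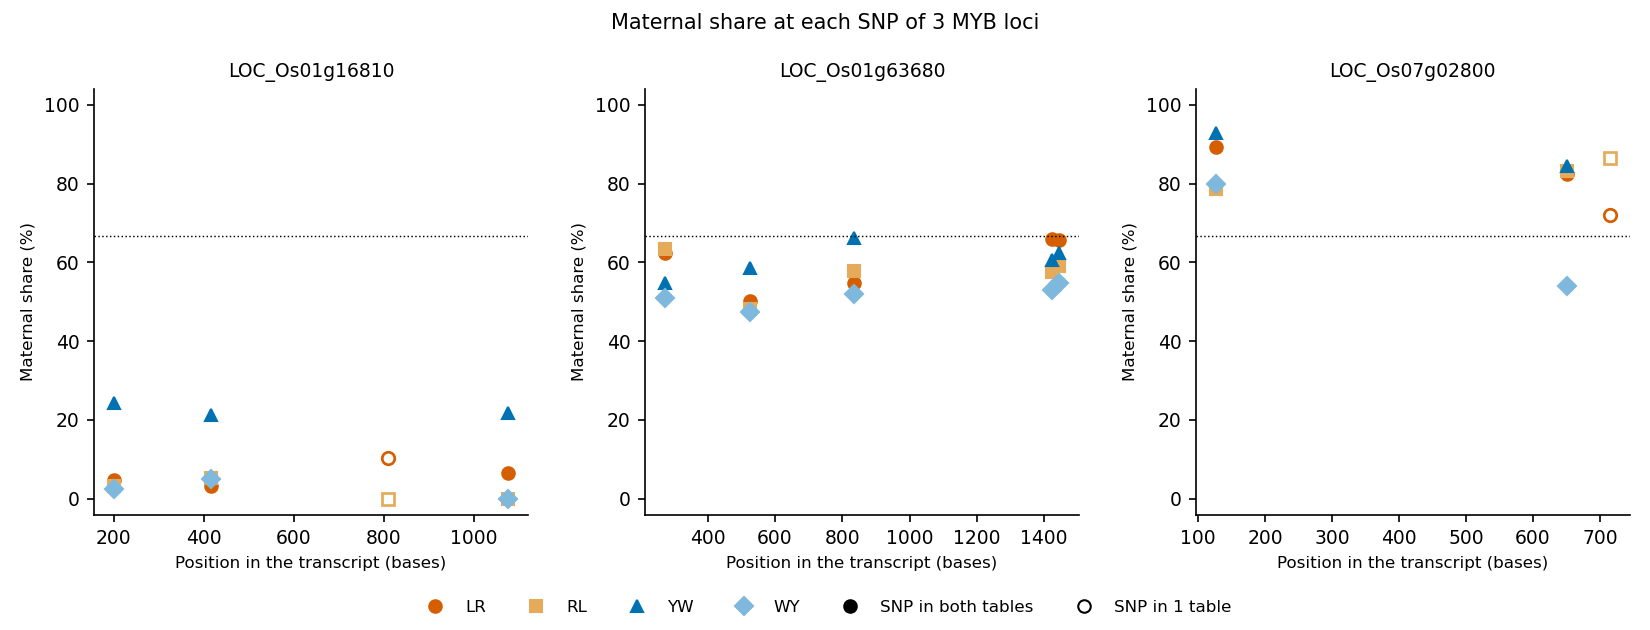
Maternal share of reads (%) at each SNP against its position in the transcript (bases) for LOC_Os01g16810, LOC_Os01g63680 and LOC_Os07g02800, with 1 marker shape per cross and the dotted line at 66.7%. The SNPs of LOC_Os01g16810 lie at or below 24.3% in every cross, those of LOC_Os01g63680 at or below 66.1%, and those of LOC_Os07g02800 above the line except 1 SNP in WY, at 54.1%.

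The other parental calls were small, and each held in 1 set. LOC_Os03g38210 had 77.2% maternal reads in LR and 74.9% in RL, and LOC_Os07g31470 had 69.6% in LR and 70.0% in RL, both called maternal. In the other set LOC_Os03g38210 had 87.5% in YW and 57.3% in WY, a japonica pattern, and LOC_Os07g31470 had 80.2% in YW and 67.0% in WY with no call. The japonica pattern of LOC_Os03g38210 rested on 1 of its 2 SNPs: at transcript position 978 the maternal allele had 202 of 225 reads in YW and 0 of 31 in WY. At position 480 it had 217 of 254 in YW and 102 of 147 in WY, above 2:1 in both. LOC_Os01g74590 was called maternal in YW-WY with 76.8% in YW and 69.5% in WY, but had 64.0% in LR and 72.7% in RL, an indica pattern. LOC_Os04g30890 was called maternal in YW-WY with 77.4% in YW and 79.2% in WY on 1 SNP. In LR-RL, on 30 SNPs, it had 65.0% in LR and 71.7% in RL. With the median ratio of each cross as the null, the calls of LOC_Os04g49450 (adjusted p = 0.0554) and LOC_Os07g31470 (0.0901) in LR-RL and of LOC_Os04g30890 in YW-WY (0.643) were lost in the exact binomial test. The authors' deposited table marked at least 1 maternal SNP, significant in both crosses, in 4 MYB loci in LR-RL and 5 in YW-WY, and at least 1 paternal SNP in 4 and 2 loci. A locus with more SNPs has more chances of such a mark. The share of all loci marked in this way is not given here, so these counts have no background.

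**Figure D3:**
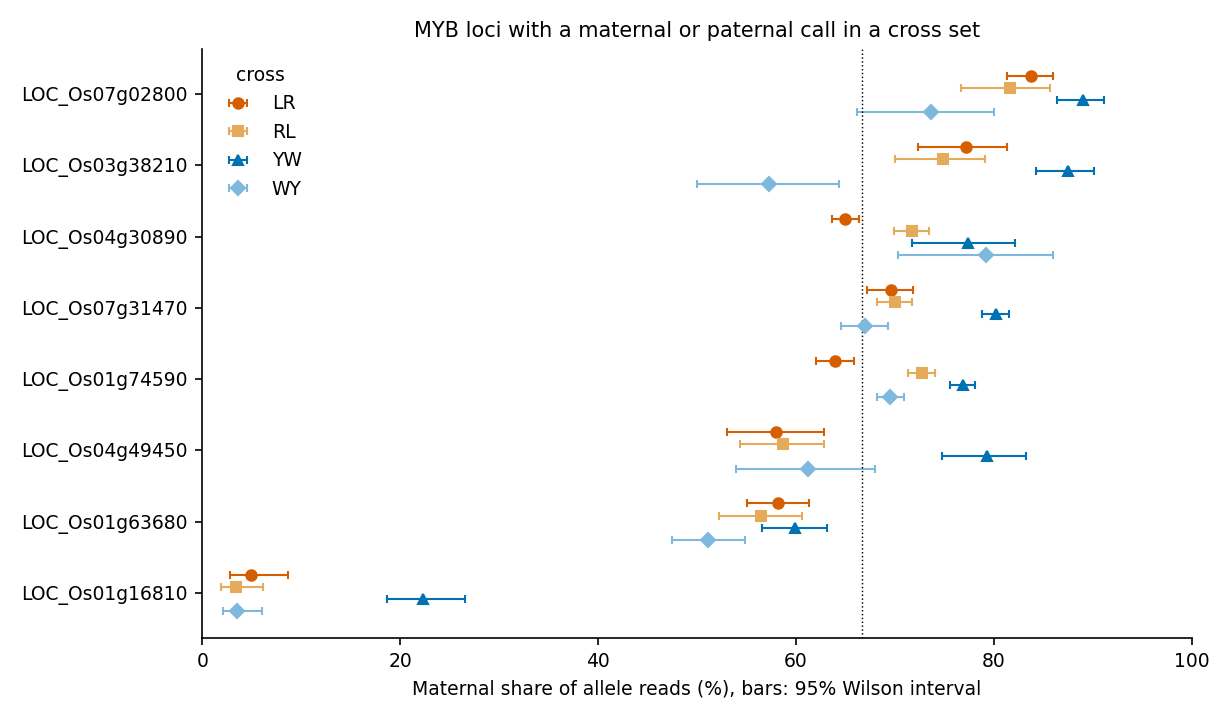
Maternal share of allele reads (%) of the 8 MYB loci with a maternal or paternal call in either set, by cross, with 95% Wilson intervals as bars (counting error only) and the dotted line at 66.7%. LOC_Os01g16810 lies at or below 22.3% in every cross, LOC_Os01g63680 between 51.1% and 59.9%, and LOC_Os07g02800 between 73.7% and 89.0%.

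The second comparison asks whether the allele of one subspecies was read more often whichever parent gave it. A japonica or indica call needs shares on opposite sides of 66.7% in the 2 crosses of a set. In LR-RL, 6 of 58 MYB loci were called japonica and 6 indica, against backgrounds of 20.1% and 11%. In YW-WY, 14 of 63 were called japonica and 1 indica, against 32.1% and 5.13%. With the median ratio of each cross as the null the split was 4 japonica and 10 indica in LR-RL, where all loci gave 16.1% and 14.2%. It was 7 and 6 in YW-WY, where all loci gave 17.5% and 13.2%. In the joint edgeR fit, 11 of 53 were called japonica and 0 indica, where all loci gave 24.4% and 7.06%. At an unadjusted p under 0.05, 12 members leaned to japonica and 1 to indica, against 30.5% and 8.71% of all loci. DESeq2 called 7 and 0, against 16.7% and 4.81%. The median strain effect was 0.24 on the log2 scale over the 53 members and 0.26 over all loci. With the median offset these were -0.01 and 0.01, a shift shared by the members and the background, and 6 members were then called japonica and 0 indica, against 16.9% and 12.9% of all loci. In LR-RL, 311 of the 352 MYB SNPs were listed with Liuqianxin carrying the reference base and 41 with Rongfeng carrying it. Over all listed SNPs these counts were 60045 and 2057. The reference allele and the japonica allele thus mostly coincide and cannot be told apart.

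At 3 loci the listed indica allele had few or 0 reads. The share of all loci read in this way is not given here, so this count has no background. LOC_Os02g46940 (chromosome 2, 1 SNP, T28652848C) had 32 maternal and 0 paternal reads in LR and 0 and 32 in RL, and 58 and 1 in YW, and 1 and 85 in WY. The japonica allele thus held over 98% of the reads in each of the 4 crosses, whichever parent gave it, and 0 of 32 reads allows a share of up to 9.38%. LOC_Os02g09670 had 328 maternal and 0 paternal reads in LR, which allows up to 0.915%, and 2 and 199 in RL, over 6 SNPs, and was not tested in YW-WY. LOC_Os05g41240 had 140 and 1 in YW and 1 and 84 in WY, over 3 SNPs, and was not tested in LR-RL. The SNP of LOC_Os02g46940 was listed in both tables, while the 6 SNPs of LOC_Os02g09670 and the 3 of LOC_Os05g41240 were each listed in 1 table only. Whether each listed position differs between the parents was not tested, and the limits cover counting error only.

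Other japonica-biased members had reads of both alleles. LOC_Os08g25820, a myb-like DNA-binding domain protein on chromosome 8, had 77.1% maternal reads in LR and 32.4% in RL, and 87.1% in YW and 39.4% in WY. The share was at or above 66.7% with the japonica mother and below it with the indica mother in both sets, at 10 of 10 SNPs in LR-RL and 9 of 9 in YW-WY. Its joint strain effect was 1.55 (SE 0.24, edgeR, adjusted p = 1.91e-09). LOC_Os08g06240, also on chromosome 8, had 71.9% in LR and 54.3% in RL, and 87.3% in YW and 50.2% in WY, with a joint effect of 0.97 (adjusted p = 9.83e-05). LOC_Os06g01670 had 76.1% in LR and 31.2% in RL, and 79.6% in YW and 22.7% in WY on 2 or 3 SNPs, with a joint effect of 1.61 (adjusted p = 0.000415). Its LR-RL reads were few, with 35 maternal and 11 paternal in LR and 15 and 33 in RL. With the SNP positions of both tables alone it had no call in LR-RL (exact binomial test, adjusted p = 0.40). The joint effect missed the threshold in DESeq2 (1.63, adjusted p = 0.0513). Of the 53 members tested in both sets, 4 were called japonica in both, where 16.2% of all loci were. These members were LOC_Os08g25820, LOC_Os08g06240, LOC_Os08g05510 and LOC_Os02g46940. Of the 3 single myb histones, LOC_Os12g41920 was called japonica in LR-RL and LOC_Os01g51154 in YW-WY. The 3 myb/SANT loci had no call in either set, with shares between 61.96% and 75.3%.

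LOC_Os02g09480, a myb-like DNA-binding domain protein on chromosome 2, was the member called in opposite directions. It had 60.1% maternal reads in LR and 74.9% in RL, an indica call, and 94.3% in YW and 18.8% in WY, a japonica call. The difference between the sets in the strain effect (YW-WY minus LR-RL) was 3.58 on the log2 scale (SE 0.48, edgeR, adjusted p = 8.79e-12). LOC_Os01g12860 differed by 2.67 (SE 0.50, adjusted p = 6.15e-06), LOC_Os05g37060 by 2.30 (SE 0.44, adjusted p = 7.80e-06) and LOC_Os09g31454 by 2.19 (SE 0.57, adjusted p = 0.0035). These were 4 of 53 members more japonica in YW-WY, against 4.47% of all loci, and 0 were more japonica in LR-RL, against 0.769%. Toward LR-RL, 0 members had an unadjusted p under 0.05, against 1.77% of all loci. DESeq2 called 3 members more japonica in YW-WY, against 2.44% of all loci, and 0 more japonica in LR-RL, against 0.349%. It did not call LOC_Os09g31454 (2.11, adjusted p = 0.296).

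Within these 4 loci the SNPs differed from one another. In LOC_Os02g09480, at transcript position 1298 (T4868971G, listed in YW-WY only), the maternal allele had 112 of 112 reads in YW and 1 of 204 in WY. At position 1362 (A4869035T, listed in both tables) it had 82 of 114 in YW and 135 of 189 in WY, while the LR-RL table gave 82 of 125 in LR and 145 of 197 in RL. The first SNP was read almost only from the japonica allele, and the second from both alleles near 2:1 in each of the 4 crosses. The 3 SNPs of the first kind in this locus summed to 481 japonica and 2 indica reads in YW and 535 and 1 in WY.

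The same split was found in the other 3 loci. In LOC_Os05g37060, 3 SNPs of the YW-WY table alone had 99.6% japonica reads in YW and 99.4% in WY, while its 3 other SNPs had 62.2% and 33.6%. In LOC_Os09g31454, 5 such SNPs had 99.3% japonica reads in YW and 100% in WY, and the sixth had 74.3% and 41.1%. In LOC_Os01g12860, 1 such SNP had 49 of 49 japonica reads in YW and 52 of 52 in WY, and the 2 others had 60.8% and 6.78%. With the SNP positions of both tables alone, the difference between sets was 0.28 for LOC_Os02g09480, 0.40 for LOC_Os05g37060 and -0.24 for LOC_Os09g31454, and 0 of 52 members passed the threshold in edgeR. Of all loci, 1.37% then passed it toward YW-WY and 0.310% toward LR-RL. LOC_Os01g12860 then fell below the minimum in LR-RL.

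**Figure D4:**
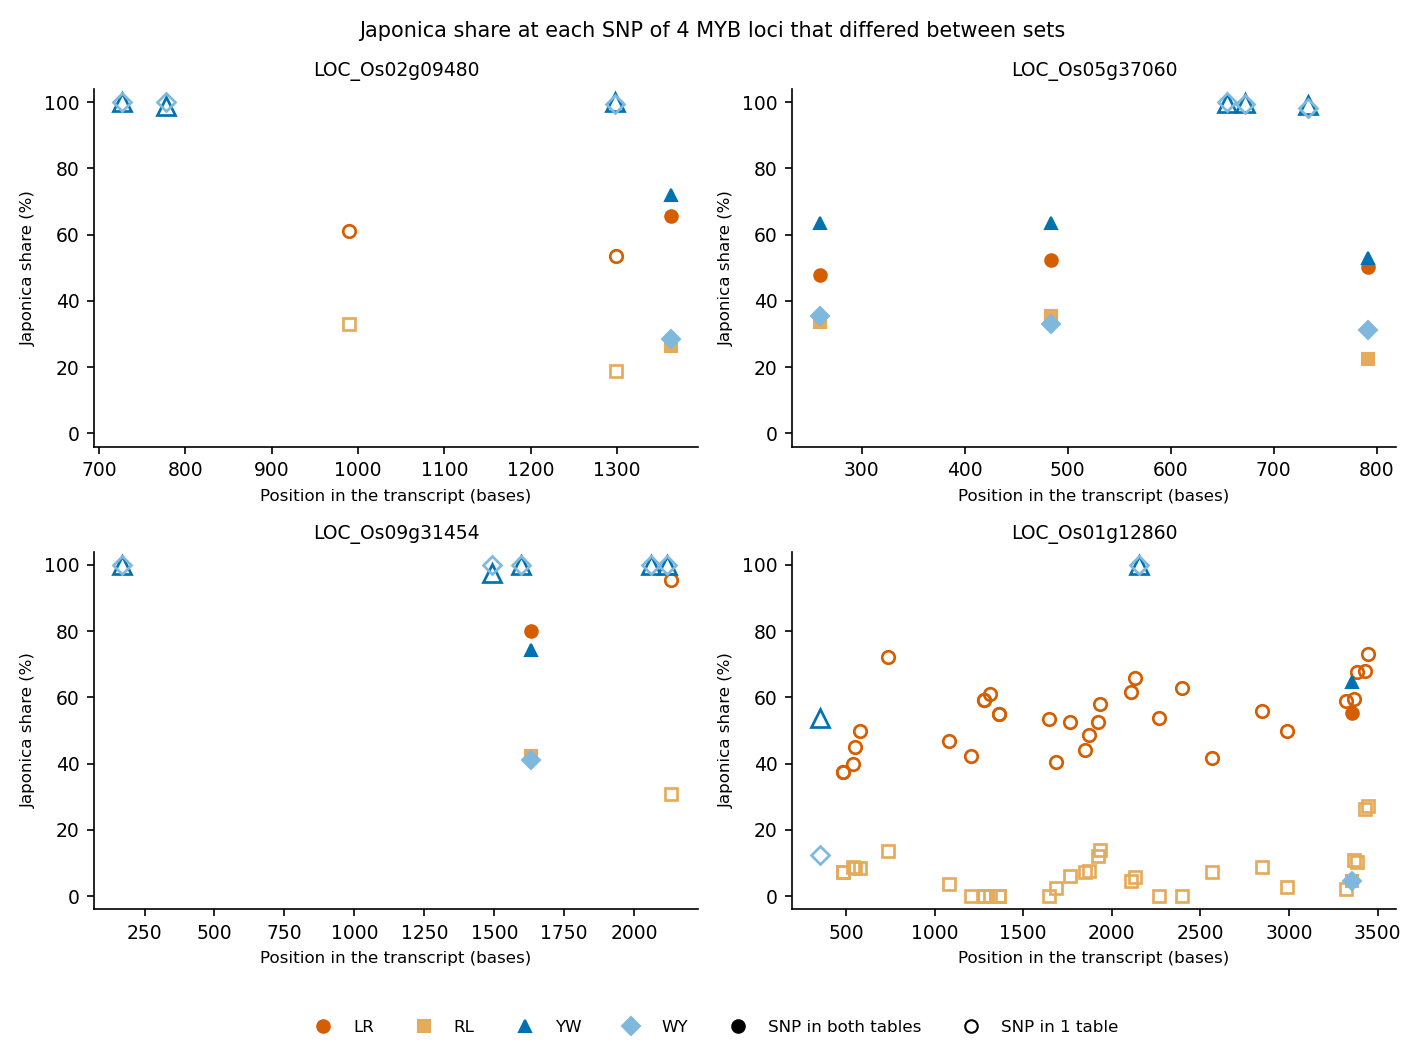
Japonica share of reads (%) at each SNP against its position in the transcript (bases) for the 4 MYB loci that differed between the sets, with 1 marker shape per cross, filled for SNPs listed in both tables and open for SNPs of 1 table. The open YW and WY markers lie at or above 97.4%, except at 1 SNP of LOC_Os01g12860, while filled markers of the same loci lie at or below 80.0%.

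Such SNPs were common in the YW-WY table as a whole. Among the MYB loci, 16 of 51 SNPs listed only in YW-WY (31.4%) were over 95% japonica in both crosses, against 2 of 212 at positions of both tables (0.943%). Over all tested loci the counts were 3074 of 11148 (27.6%) and 2305 of 47024 (4.90%). In LR-RL they were 5 of 143 MYB SNPs listed there only and 2 of 209 (0.957%) at shared positions, and over all tested loci 1146 of 13865 (8.27%) and 2339 of 46570 (5.02%). The 16 SNPs lay in 6 MYB loci. What makes these SNPs differ from their neighbours was not tested.

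The third comparison sets the total reads of a locus with the japonica mother against those with the indica mother. LOC_Os07g02800 had 32.4 TMM-scaled CPM in LR and 9.46 in RL, and 20.4 in YW and 6.18 in WY. It was 3.42-fold higher in LR than in RL and 3.31-fold higher in YW than in WY, and the crosses with the japonica mother were above both others. The edgeR difference was 1.75 on the log2 scale (SE 0.35, adjusted p = 0.033), the only one higher with the japonica mother among 53 members, against 1.51% of all loci. Members called lower numbered 0, against 0.933% of all loci, with 3 at an unadjusted p under 0.05, against 8.27%. In this bulk tissue, fewer cells of a type and less RNA per cell cannot be told apart. The summed green-tissue genes were also higher with the japonica mother, at 108 CPM in LR and 42.8 in RL, and 181 in YW and 80.1 in WY. Most of the sum came from 1 Rubisco small subunit locus, LOC_Os12g17600, with 102.2 CPM in LR and 30.8 in RL, and 137.6 in YW and 45.1 in WY. The other such locus of LR-RL, LOC_Os12g19381, went the opposite way there, with 5.65 CPM in LR and 11.97 in RL. The endosperm marker LOC_Os08g42350, read almost only from the mother, was also higher with the japonica mother. It had 8.99 CPM in LR and 3.75 in RL, and 23.9 in YW and 11.2 in WY. LOC_Os02g49410 was higher in both sets as well, while LOC_Os02g15350 and the summed endosperm markers were lower. What part green-tissue and endosperm genes had in this result was not tested.

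LOC_Os03g31230, a MYB family transcription factor of chromosome 3, had the lowest ratio. It had 100.9 TMM-scaled CPM in LR and 256.0 in RL, and 91.3 in YW and 215.6 in WY, which is 0.394-fold and 0.424-fold. The difference of -1.29 (SE 0.36) missed the threshold in edgeR (adjusted p = 0.0818) and passed it in DESeq2 (-1.32, adjusted p = 0.0158). It and LOC_Os07g02800 were the 2 members over 2-fold apart in the same direction in both sets. The share of all loci was 2.68% for lower and 3.52% for higher. Over 2-fold in LR against RL were 6 members (4 higher, 2 lower), against 20.4% of all loci, and in YW against WY 7 members (6 higher, 1 lower), against 15.8%. Its alleles were near 2:1, with 68.4% maternal reads in LR and 64.9% in RL, and 70.6% in YW and 66.0% in WY.

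**Figure D5:**
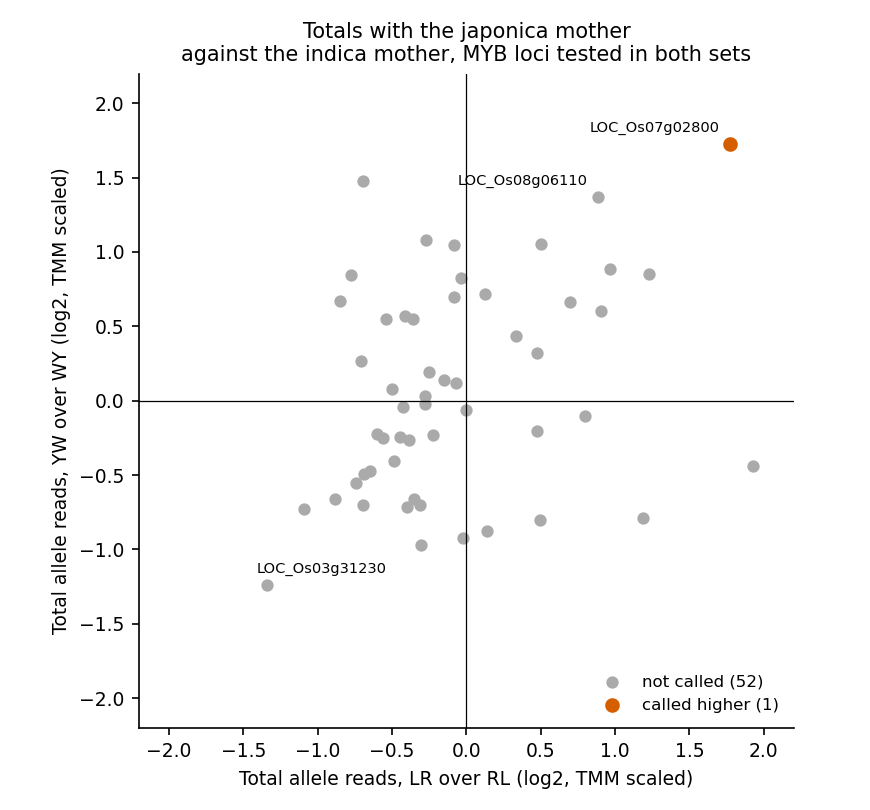
Total allele reads with the japonica mother over those with the indica mother (log2, TMM scaled) for the 53 MYB loci tested in both sets, LR over RL on the x axis and YW over WY on the y axis. LOC_Os07g02800 lies at the upper right and is the 1 locus called, and LOC_Os03g31230 lies at the lower left.

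MYB loci were read at modest levels. The median MYB locus had 2.17 CPM per SNP in LR-RL and 2.32 in YW-WY, against 3.11 and 3.06 over all tested loci, which put it at percentiles 38.8 and 41.2. These levels are means over the 2 crosses of a set. The members with the highest CPM per SNP in LR-RL were LOC_Os05g28320 with 33.6, LOC_Os01g74590 with 33.2, LOC_Os03g31230 with 27.1, LOC_Os09g12750 with 18.4 and LOC_Os01g51154 with 17.1. In YW-WY they were LOC_Os01g74590 with 36.1, LOC_Os03g31230 with 23.4, LOC_Os01g51154 with 17.1, LOC_Os04g58020 with 16.9 and LOC_Os05g37060 with 16.8. LOC_Os01g74590, LOC_Os03g31230 and LOC_Os01g51154 stood among the first 5 in both sets. Among the most read members, LOC_Os03g31230, LOC_Os05g28320 and LOC_Os09g12750 had no allelic call in any set in which they were tested.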

How the data were processed

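Reads at SNPs between the parents were deposited by the authors as whole-number counts of maternal and paternal alleles, with 1 maternal and 1 paternal column per cross and the replicates pooled, per the file headers. Each SNP also carries a deposited p-value and an adjusted p-value (false discovery rate) of the authors, which are used here only where the authors' deposited table is named. GATK 3.5, SAMtools 0.1.16, Bowtie2 2.2.1 and Trimmomatic 0.32 appear in the submitters' processing notes without a role. Positions are those of the tables, with a genome build not given in the sources used here. No SNP is listed with under 11 reads in a cross.

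Counts were summed over the SNPs of a locus, so a read that covers several SNPs is counted at each, which makes counting intervals too narrow and binomial p-values too small. Each cross was tested against 2:1 with an exact two-sided binomial test (scipy 1.17.1), the larger p of a set was kept and Benjamini-Hochberg adjustment ran across every tested locus. These p-values compare the pooled libraries and cannot be carried over to other plants. The joint fit used edgeR 4.0.16 in R 4.3.3 (quasi-likelihood, a 2:1 offset, a term per cross, a parent term and a strain term per set, common dispersion 0.0469). Totals used edgeR with TMM scaling and terms for set and mother (common dispersion 0.0765). Both leave 1 residual degree of freedom per locus. The p-values of the joint fit therefore rest mainly on spread pooled over all loci, and not on how the sets repeat at 1 locus. The test of the strain effect between sets and the restriction to SNP positions of both tables were added after seeing the data. DESeq2 1.42.0 was an alternative. The fits were also run on simulated data. Its totals had less spread than these data, and it held no reads counted at several SNPs. That run therefore cannot vouch for the p-values given here.

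The members, lists and tests were chosen with earlier results of these data known. Members named are those with a parental call, the 6 with the largest joint strain effect, those with over 95% of reads from 1 allele, those called in totals and the 5 with most reads per SNP in each set. LOC_Os01g03660, LOC_Os01g12860, LOC_Os05g37060, LOC_Os08g05510, LOC_Os12g41920 and the loci at the minimum were named after their values were seen. The tables pair loci with function texts and no gene symbols, and locus numbers are used throughout. Loci of a gene family can share reads.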

Additional observations from a re-analysis of the deposited data

Results flagged for a closer look

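At 4 MYB loci the japonica-against-indica effect differed between the 2 cross sets by the edgeR test of the difference, which was chosen after seeing the data. The effect of YW-WY exceeded that of LR-RL by 3.58 on the log2 scale at LOC_Os02g09480, by 2.67 at LOC_Os01g12860, by 2.30 at LOC_Os05g37060 and by 2.19 at LOC_Os09g31454. In each of these loci the SNPs listed in the YW-WY table alone included sites over 95% japonica in both crosses, next to SNPs read from both alleles. With the SNP positions of both tables alone, 3 of the loci had differences of 0.28, 0.40 and -0.24 and passed no threshold, and LOC_Os01g12860 could not be tested. The difference at LOC_Os01g12860 was 2.39 with the median offset and missed the threshold there (adjusted p = 0.288).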

How the results depend on the processing

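No paired analysis was possible because the tables pool the replicates of a cross, and for the same reason no replicate could be left out. Counts are of MYB loci, each followed by the percent of all tested loci called in the same way. In LR-RL, indica calls were 10 (14.2%) with the median ratio of each cross as null, 1 (7.88%) with the SNP with most reads and 2 (10.8%) with the positions of both tables, and maternal calls 1 (1.56%) with the SNP with most reads. In YW-WY, in that order, japonica calls were 7 (17.5%), 8 (23.0%) and 9 (27.9%) and indica calls 6 (13.2%), 0 (4.42%) and 0 (4.74%), and indica calls 0 (5.09%) with a minimum of 100 reads. Joint paternal calls were 2 with the median offset (6.17%) and with the SNP with most reads (4.93%). Joint japonica calls were 7 (16.7%) with DESeq2, 6 (16.9%) with the median offset, 7 (21.6%) with the positions of both tables and 4 (12.8%) with a single strain effect. Fits that left out a cross also had the single strain effect, so both choices changed. Without LR, RL, YW and WY, in that order, japonica calls were 4 (18.1%), 6 (12.2%), 2 (7.83%) and 2 (10.05%), and maternal calls 0 (0.902%), 0 (1.75%), 0 (0.882%) and 2 (1.74%). With the single strain effect and 4 crosses, maternal calls were 1 (1.51%). Joint indica calls were 1 (7.24%) with no read minimum and 1 (3.63%) in the fit without WY and with the single strain effect. Loci more japonica in YW-WY were 2 (1.29%) with the median offset and 0 (1.37%) with the positions of both tables. In totals, 3 (7.96%) were higher with total allele reads as library size, a scaling that moved the median of all loci to 0.35, against 0.04 with TMM, and 1 (2.72%) was lower with DESeq2. The joint strain effect turned to -0.13 for LOC_Os02g09480 with the positions of both tables, and for LOC_Os05g37060 to -0.29 with the SNP with most reads and -0.33 with the positions of both tables. The difference between sets of LOC_Os09g31454 turned to -0.24 in both. These restrictions drop SNPs, and other causes were not tested. LOC_Os01g16810 was called paternal in each joint fit run.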

Other observations

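Other transcription factor families are given by counts for orientation, without a test. Maternal or paternal calls were made for 6 of 58 MYB loci in LR-RL (10.3%) and 4 of 63 in YW-WY (6.35%), and for 8.77% and 9.59% of all tested loci. MADS loci had 2 of 8 in LR-RL (25%) and 1 of 9 in YW-WY (11.1%). NAC loci had 6 of 27 in LR-RL (22.2%) and 8 of 28 in YW-WY (28.6%). Zinc finger loci had 14.3% and 12.6%, AP2 loci 12.5% and 16.7%, and homeobox or homeodomain loci 12.5% and 17.2%. The lowest shares of families were found for WRKY and helix-loop-helix loci in LR-RL (6.25% each) and bZIP loci in YW-WY (3.70%).

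Helix-loop-helix and WD40 proteins act with MYB proteins in plant regulatory complexes. Of the helix-loop-helix loci, 1 of 16 was called paternal in LR-RL and 1 of 18 in YW-WY, and 0 were called maternal. The WD40 locus LOC_Os02g45810 had 58.8% maternal reads in LR and 68.75% in RL, and 73.0% in YW and 68.5% in WY, with no call in either set.

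Listed in 1 table only, and below the read minimum there, were 6 MYB loci. LOC_Os07g25150 had 20 maternal and 0 paternal reads in LR and 0 and 25 in RL on 1 SNP, that is, reads of the japonica allele only. LOC_Os06g49040 had 9 and 17 in LR and 27 and 1 in RL. The other 4 had 11 to 27 reads in a cross.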
